A study of Mus musculus with 4 samples.

Results

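Among 24062 genes in the table of read counts, 10 were chosen by name as genes of the ciliary margin. They are the homeobox genes *Msx1*, *Msx2* and *Otx1*, the zinc finger genes *Zic1* and *Zic2*, the BMP ligand genes *Bmp4* and *Bmp7*, the gap junction gene *Gja1*, the gene of the secreted protein *Wfdc1*, and *Gas1*, which encodes a cell surface co-receptor of Hedgehog ligands. All 10 were found in the table, and all 10 passed the filter on low counts. The ciliary margin is the peripheral rim of the optic cup, where the neural retina meets the pigment epithelium, and it later gives rise to the epithelia of the ciliary body and iris. It is set apart from the central neural retina by Wnt and BMP signalling, and its progenitors express patterning factors that the central retina expresses weakly or not at all.

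RNA-seq was performed on wildtype retinas (WT, 2 libraries) and on retinas labelled Nrf1-CKO (2 libraries), in which *Nrf1* f/f;*Six3-Cre* deletes exon 4 of *Nrf1*, the gene of nuclear respiratory factor 1, in retinal progenitor cells. All were E13.5 embryos of a mixed C57BL/6 and 129 strain, and each library was made from RNA of retinas pooled from littermates, so a library is a pool and not an animal, and p-values measure only the spread between pools. According to the study, *Six3-Cre* begins to act in the central retina. The labels do not say whether the wildtype embryos carried Cre or floxed alleles.

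Depth was similar, with 74577660 to 85933945 reads counted on genes per library. For *Nrf1* itself 9052 and 7789 reads were counted in wildtype libraries, 8594 and 8284 in mutant ones, and a count over the whole gene does not check the loss of a single exon. The retinal progenitor genes *Rax*, *Six6* and *Lhx2* were present in every library at 170 to 406 CPM (reads of a gene scaled to a common library size) on average in wildtype and 181 to 424 in mutant retinas. As a check for a library deposited more than once, replicates were compared against counting error alone, which they exceeded (chi-square 42.0 per gene in wildtype and 51.5 in mutant), so each was kept as its own sample. Library sizes behind the CPM were adjusted by TMM factors. Changes are given as log2 fold changes of mutant over wildtype ± standard error, and "called", "rose" and "fell" mean a 1.4-fold difference or more together with an adjusted p no higher than 0.2, both taken from the study.

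All 10 ciliary margin genes had higher levels in both mutant libraries than in both wildtype libraries. Of the 10, 9 rose past the thresholds, all but *Zic2*, and none fell. Among the 15762 genes tested, 12.8% were called higher, 8.04% lower, and 30.9% had both mutant values above both wildtype values. The median log2 fold change of the 10 genes was 1.09, from 0.46 for *Zic2* to 1.97 for *Msx2*, while the median over all tested genes was 0.00073. On the deposited log2 normalized values, tested with limma, the median of the 10 genes was 0.70. At least 2-fold increases were called for 6 of the 10, *Msx1*, *Msx2*, *Gja1*, *Otx1*, *Bmp4* and *Gas1*, against 7.63% of all tested genes. On the deposited values only *Gja1* (1.05) and *Gas1* (1.14) passed 2-fold, 2 of the 10 against 1.02% of all tested genes. All 9 increases also passed at an adjusted p of 0.05 (9.17% of all tested genes were called higher at that limit) in edgeR's quasi-likelihood test with Benjamini-Hochberg adjustment. Since the tissue was bulk retina, more margin cells among the pooled cells and more RNA per margin cell cannot be told apart.

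**Figure D1:**
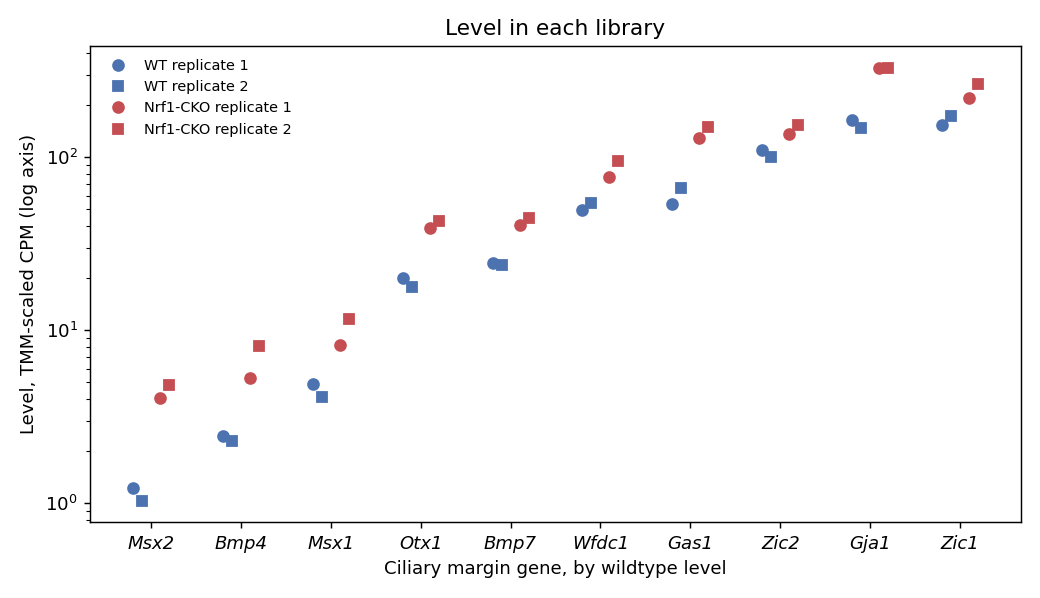
Level of each ciliary margin gene in each of the 4 libraries, in TMM-scaled CPM on a log axis, with genes ordered by their wildtype mean. Both mutant points (red) lie above both wildtype points (blue) for all 10 genes, and mutant replicate 2 (square) lies above mutant replicate 1 (circle) for each.

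The Msx homeobox genes encode transcriptional repressors that are known targets of BMP signalling. *Msx2*, which spans 53466884 to 53473074 of chromosome 13 (GRCm38, as for all genes here), had 1.23 and 1.04 CPM in wildtype and 4.07 and 4.86 CPM in mutant libraries. The groups were far apart at a low level, which rests on 108, 77, 338 and 402 reads in the same order. In the counts this was the largest change of the 10 genes, at 1.97 ± 0.26 (edgeR, adjusted p = 0.000856), with 2.61% of tested genes higher. On the deposited values *Msx2* had 0.75, below *Gas1*, *Gja1* and *Otx1* (0.92). *Msx1*, on chromosome 5 from 37820485 to 37824583, had 4.89 and 4.11 CPM in wildtype and 8.19 and 11.7 CPM in mutant libraries. Both mutant libraries were high, replicate 2 more so, and the change was 1.14 ± 0.20 (edgeR, adjusted p = 0.00402), against 0.65 on the deposited values and 0.86 without mutant replicate 2. *Msx3*, the relative of these genes, had no read in any library.

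*Bmp4* and *Bmp7* encode secreted ligands of the BMP family. *Bmp4*, which marks the dorsal retina as well as the margin, lies on chromosome 14 from 46383520 to 46390669. It had 2.44 and 2.29 CPM in wildtype and 5.32 and 8.10 CPM in mutant libraries. The wildtype libraries were close together and the mutant libraries were not, with mutant replicate 1 at 0.657 of replicate 2, the widest gap among the 10 genes. The change of 1.50 ± 0.24 (edgeR, adjusted p = 0.0023) ranged from 1.17 to 1.77 when 1 library was left out and was 0.71 on the deposited values. *Bmp7*, on chromosome 2 from 172868012 to 172940321, had 24.4 and 23.8 CPM in wildtype and 40.6 and 44.8 CPM in mutant libraries. Its replicates were close in both genotypes, and the change was 0.83 ± 0.09 (edgeR, adjusted p = 0.000375).

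*Otx1* encodes a homeodomain factor of the anterior head that is needed for the ciliary process and iris. It lies on chromosome 11 from 21994764 to 22002897 and had 20.1 and 17.7 CPM in wildtype and 38.9 and 42.9 CPM in mutant libraries. The level thus about doubled in both mutant pools, with a change of 1.11 ± 0.10 (edgeR, adjusted p = 0.000211). Its relative *Otx2*, which the pigment epithelium and photoreceptor precursors express, had 94.2 ± 2.35 CPM in wildtype and 92.0 ± 4.7 CPM in mutant retinas (SD, n = 2). The log2 fold change of *Otx2* was -0.033, and it changed sign with upper-quartile scaling and with libraries scaled to progenitor markers.

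*Zic1* and *Zic2* encode zinc finger factors, and *Zic2* is also expressed in ventrotemporal retinal ganglion cells. *Zic1*, on chromosome 9 from 91358058 to 91365810, had 154 and 172 CPM in wildtype and 221 and 266 CPM in mutant libraries. The groups did not overlap, but the difference was small, at 0.58 ± 0.11 (edgeR, adjusted p = 0.00456), and without mutant replicate 2 it was 0.44 and below 1.4-fold. *Zic2*, on chromosome 14 from 122475435 to 122479852, had 111 and 99.998 CPM in wildtype and 137 and 154 CPM in mutant libraries. Here too the mutant libraries were the higher ones, and the difference was larger than the spread between replicates (0.46 ± 0.09, edgeR, adjusted p = 0.00658). At 1.38-fold it missed the limit of 1.4, which it passed without wildtype replicate 1 (0.54), without mutant replicate 1 (0.55) and with upper-quartile scaling (0.50).

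*Zic4* and *Zic5* had log2 fold changes of 0.41 and 0.49. For both of them the mutant values lay above the wildtype values without overlap. Of these only *Zic5*, whose gene lies 9757 bp from *Zic2* on the opposite strand, was called (adjusted p = 0.00621 from edgeR). It lost the call without wildtype replicate 1 (0.40), without mutant replicate 2 (0.46), with library size scaling (0.47), on the deposited normalized values (0.43) and when the fold itself was tested against 1.4 with edgeR. The spans of *Zic1* and *Zic4*, introns included, overlap over 3398 bp on opposite strands. Reads from exons that overlap there could not be assigned without strand, but overlap of exons was not measured. The same holds for *Wfdc1*, *Bmp4* and *Gas1*, whose spans overlap noncoding or unnamed genes of the opposite strand.

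*Gja1* encodes connexin 43, which joins the pigmented and nonpigmented layers of the ciliary epithelium by gap junctions. It lies on chromosome 10 from 56377330 to 56402513 and had 165 and 147 CPM in wildtype and 328 and 329 CPM in mutant libraries. The mutant libraries were nearly equal and both were high, and the change was 1.07 ± 0.08 (edgeR, adjusted p = 0.000105), the smallest error and the smallest adjusted p of the 10 genes. *Wfdc1*, on chromosome 8 from 119666365 to 119688222, encodes a secreted protein with a whey acidic protein domain. It had 49.4 and 54.4 CPM in wildtype and 77.3 and 95.2 CPM in mutant libraries. Mutant replicate 2 was again the highest, and the change was 0.73 ± 0.11 (edgeR, adjusted p = 0.00159). Its relative *Wfdc2* had a log2 fold change of 0.38 and was not called, except without mutant replicate 1 (0.53) and with libraries scaled to progenitor markers.

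*Gas1* lies on chromosome 13 from 60174405 to 60177365 and is a gene without introns. It had 53.9 and 66.0 CPM in wildtype and 128 and 150 CPM in mutant libraries. Both mutant libraries were far above both wildtype libraries, and the change was 1.21 ± 0.12 (edgeR, adjusted p = 0.000231).

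**Figure D2:**
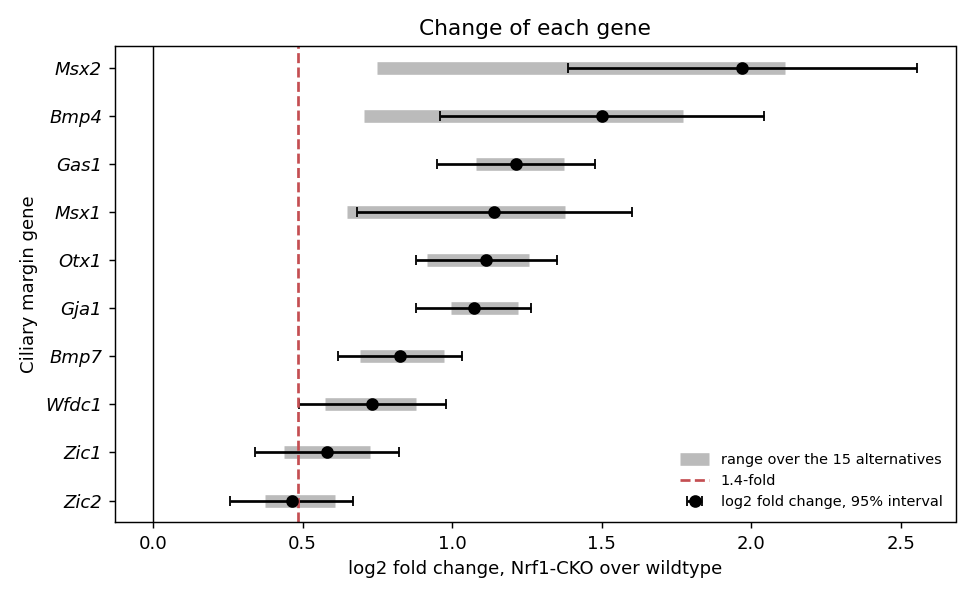
Log2 fold change of each ciliary margin gene (mutant over wildtype) from edgeR, with its 95% interval (black bar) and the range of its value over 15 other ways of processing (grey). The interval lies above the 1.4-fold line (dashed) for 8 genes and crosses it for *Zic1* and *Zic2*.

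**Figure D3:**
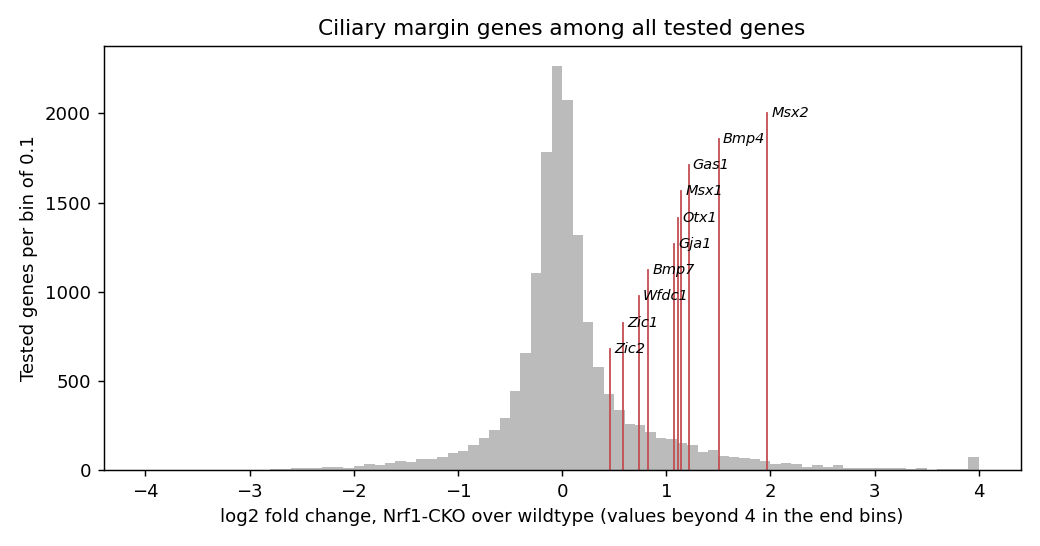
Number of tested genes in each bin of log2 fold change (mutant over wildtype), with the 10 ciliary margin genes marked by red lines whose heights have no meaning. The 10 genes sit to the right of the peak near 0, where between 2.61% (*Msx2*) and 17.9% (*Zic2*) of the tested genes lie further right.

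The RefSeq promoter table (GRCm38.p6) held 6 of the 10 genes, *Msx1*, *Msx2*, *Zic1*, *Gja1*, *Gas1* and *Bmp4*. The NRF1 palindrome was searched on both strands in the 250 bases before the start, exactly and with 1 open base, where the looser search includes the exact one. Neither was found in any of the 6, and they were found in 0.782% and 3.74% of all 32851 promoters, so most promoters held no match. On both strands CCAAT, the letters of a common promoter box, was found in 4 of the 6, against 33.8% of all promoters. GGCGCC, letters bound by BMP Smads, was found in *Zic1* and *Gas1*, against 9.59%. CTTTGA, a core of TCF and LEF sites, was found in none, against 13.8%. These last 3 were chosen after the sequences were seen. The promoters of *Msx1* and *Gas1*, both of which were called higher, are printed 5′ to 3′ on the minus strand, the sense strand of both genes, with CCAAT or its reverse complement in capitals. They are chr5:37824586-37824835 and chr13:60177536-60177785.

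Msx1: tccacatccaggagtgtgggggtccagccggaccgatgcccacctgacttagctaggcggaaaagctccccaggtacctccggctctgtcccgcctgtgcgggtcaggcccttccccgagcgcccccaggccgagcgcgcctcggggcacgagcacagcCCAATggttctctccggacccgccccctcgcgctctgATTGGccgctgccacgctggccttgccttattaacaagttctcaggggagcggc

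Gas1: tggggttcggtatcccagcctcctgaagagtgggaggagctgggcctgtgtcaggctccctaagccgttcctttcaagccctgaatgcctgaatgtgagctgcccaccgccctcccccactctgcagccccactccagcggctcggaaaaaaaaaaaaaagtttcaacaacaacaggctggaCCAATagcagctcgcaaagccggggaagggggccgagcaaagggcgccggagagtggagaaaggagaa

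In *Msx1* the boxes began 91 and 54 bases before the start, the second of them on the opposite strand, and in *Gas1* the box began 68 bases before it. These distances are counted from the start in RefSeq, which for *Gas1* lies upstream of the GENCODE gene whose coordinates are given above. The searched window of *Msx2* lies wholly within its GENCODE gene, and that of *Zic1* reaches partly into its own. A match of letters is a description and not a site of binding.

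Within the set, levels were divided by the length of all annotated exons of a gene, merged over its transcripts, to compare genes. Where the main transcript is shorter than this length the value is too low. The length was largest for *Gja1*, 10257 bp merged over 8 transcripts, so its place in the order is uncertain. On this scale, *Zic2* (36.6 ± 2.60 CPM per kb in wildtype, SD, n = 2) and *Wfdc1* (33.7 ± 2.29) were the highest and overlapped. *Zic1* (28.6 ± 2.26), *Gas1* (20.3 ± 2.91) and *Gja1* (15.2 ± 1.20) followed, each below the last in both libraries. *Bmp7* and *Otx1* came next at 5.99 ± 0.0984 and 3.48 ± 0.308 CPM per kb. The lowest were *Msx1* (1.45 ± 0.177), *Bmp4* (1.05 ± 0.0477) and *Msx2* (0.346 ± 0.0421), and none of these neighbours overlapped. In mutant retinas the order of the highest genes became *Wfdc1* (56.0 ± 8.20), *Zic2* (50.4 ± 4.26), *Gas1* (47.0 ± 5.16) and *Zic1* (42.7 ± 5.66 CPM per kb), where each overlapped the next, and *Msx1* (3.21 ± 0.800) overlapped *Bmp4* (2.99 ± 0.874).

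The replicates of the mutant differed in 1 direction over the set. All 10 genes were higher in mutant replicate 2 than in replicate 1, against 48.1% of all tested genes, with a median ratio of replicate 1 to replicate 2 of 0.847 and a range from 0.657 to 0.995. Over all tested genes the median ratio was 1.01. In wildtype, 7 of 10 were higher in replicate 1, against 49.7% of all tested genes. The set had 8 called genes without mutant replicate 2, 10 without mutant replicate 1, 10 without wildtype replicate 1 and 9 without wildtype replicate 2. The same 8 genes were called with each of the 4 libraries left out, namely all but *Zic1* and *Zic2*.

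Other genes known from the margin or from its derivatives were read from a separate list of 7, and 5 of them rose. *Ccnd2*, a G1 cyclin of peripheral progenitors, had 125 ± 1.88 CPM in wildtype and 265 ± 40.1 CPM in mutant retinas (SD, n = 2, log2 fold change 1.09). The Wnt ligand gene *Wnt2b*, expressed at the tip of the optic cup, rose by 1.45 and the Wnt feedback gene *Axin2* by 0.98 (log2). The collagen gene *Col9a1* had 0.72, and *Mitf*, a factor of the pigment epithelium that is also found at the margin, had 1.05. Their adjusted p values from edgeR lay between 0.000238 (*Ccnd2*) and 0.00139 (*Col9a1*), and all 5 stayed called with each library left out. The other 2 genes of the list, *Lef1* (0.43) and *Otx2* (-0.033), were not called.

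BMP signals run from ligands through receptors to Smad proteins, and secreted or intracellular inhibitors limit them. Among 5 other ligand genes, *Bmp2* (log2 fold change 1.18, adjusted p = 0.00331 from edgeR) and *Bmp5* (1.15, adjusted p = 0.0638 from edgeR) rose, and *Bmp5* lost the call without mutant replicate 2 (adjusted p = 0.203 from edgeR). None of 6 receptor genes and none of 4 Smad genes that carry the signal was called, with medians of 0.067 and -0.099. The largest values there were those of *Acvr1*, 0.43, called without wildtype replicate 1 (0.55) or mutant replicate 2 (0.63), and *Smad9*, 0.31, called without wildtype replicate 2 (0.54). Of 9 inhibitor genes, 5 rose, namely *Bmper* (1.39), *Nog* (1.33), *Grem1* (0.74), *Smad7* (0.56) and *Smad6* (0.55), with a median over the 9 of 0.55. Only *Bmper* of these stayed called with each library left out, and 2 inhibitor genes were called without wildtype replicate 1 and 2 without mutant replicate 2, 3 higher and 1 lower without mutant replicate 1, and 5 without wildtype replicate 2. Limma on the deposited values called 1 of the 9 inhibitor genes, and edgeR called 1 when the fold itself was tested against 1.4. *Smad6* had 0.34 without wildtype replicate 1. *Nog* had only 19, 32, 82 and 53 reads. The Id genes, which encode inhibitors of bHLH factors and are widely used targets of BMP signals, had no member called higher. *Id1*, *Id2* and *Id3* had log2 fold changes of 0.080, -0.011 and 0.31 and were not called, and *Id4* fell from 18.7 to 9.37 CPM (-0.998, adjusted p = 0.00413 from edgeR).

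Among 8 targets of canonical Wnt signalling, 4 rose, *Axin2* (0.98), *Tcf7* (1.08), *Rnf43* (0.84) and *Sp5*, and none fell, with a median of 0.63. This median was 0.37 without mutant replicate 1 and 0.76 without wildtype replicate 1. *Axin2* and *Tcf7* stayed called with each library left out. *Rnf43* was called only at an adjusted p of 0.197 from edgeR and lost the call in 3 of these fits, to between 0.35 without mutant replicate 1 and 1.06 without wildtype replicate 1. *Sp5* was near the limit of detection, with 3, 2, 30 and 16 reads, a ratio of 8.97 with an exact 95% interval of 3.58 to 28.9 for counting error only, and it was not called without mutant replicate 1. The list as a whole had 2 called genes without mutant replicate 1 and 3 without wildtype replicate 2.

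*Gas1* acts with *Cdon* and *Boc* as a co-receptor of Sonic hedgehog, and all of these co-receptor genes rose. *Cdon* had 508 CPM in wildtype and 806 CPM in mutant retinas (log2 fold change 0.67, adjusted p = 0.000794 from edgeR), and *Boc* had 40.7 and 67.9 CPM (0.74, adjusted p = 0.000786 from edgeR). In the same libraries the ligand gene *Shh* and the target genes *Gli1*, *Ptch1* and *Hhip* fell, with log2 fold changes of -2.65, -3.21, -0.69 and -0.71. *Shh* moved to -5.65 without mutant replicate 1 and to -1.75 without mutant replicate 2. *Gli2*, *Gli3* and *Smo* were not called. Of the 10 Hedgehog genes beside *Gas1*, 2 rose and 5 fell, and these 7 calls held with each library left out.

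Since *Bmp4* is a dorsal gene, position markers were read as well. The retinaldehyde dehydrogenase gene *Aldh1a1*, expressed dorsally, rose from 1075 to 2235 CPM (log2 fold change 1.06, adjusted p = 0.000104 from edgeR). The other 5 dorsal genes were not called, though the mutant values of all 6 lay above their wildtype values, and their median was 0.36. With libraries scaled to progenitor markers, which moved the median of all tested genes up to 0.15, 4 of the 6 were called higher. Of 6 ventral and optic stalk genes, *Aldh1a3*, which encodes another retinaldehyde dehydrogenase, rose (0.65, adjusted p = 0.00369 from edgeR). Without mutant replicate 2 it was below 1.4-fold (0.48). The median of the 6 was -0.16, and it was -0.25 without wildtype replicate 1 and -0.041 without mutant replicate 2.

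**Figure D4:**
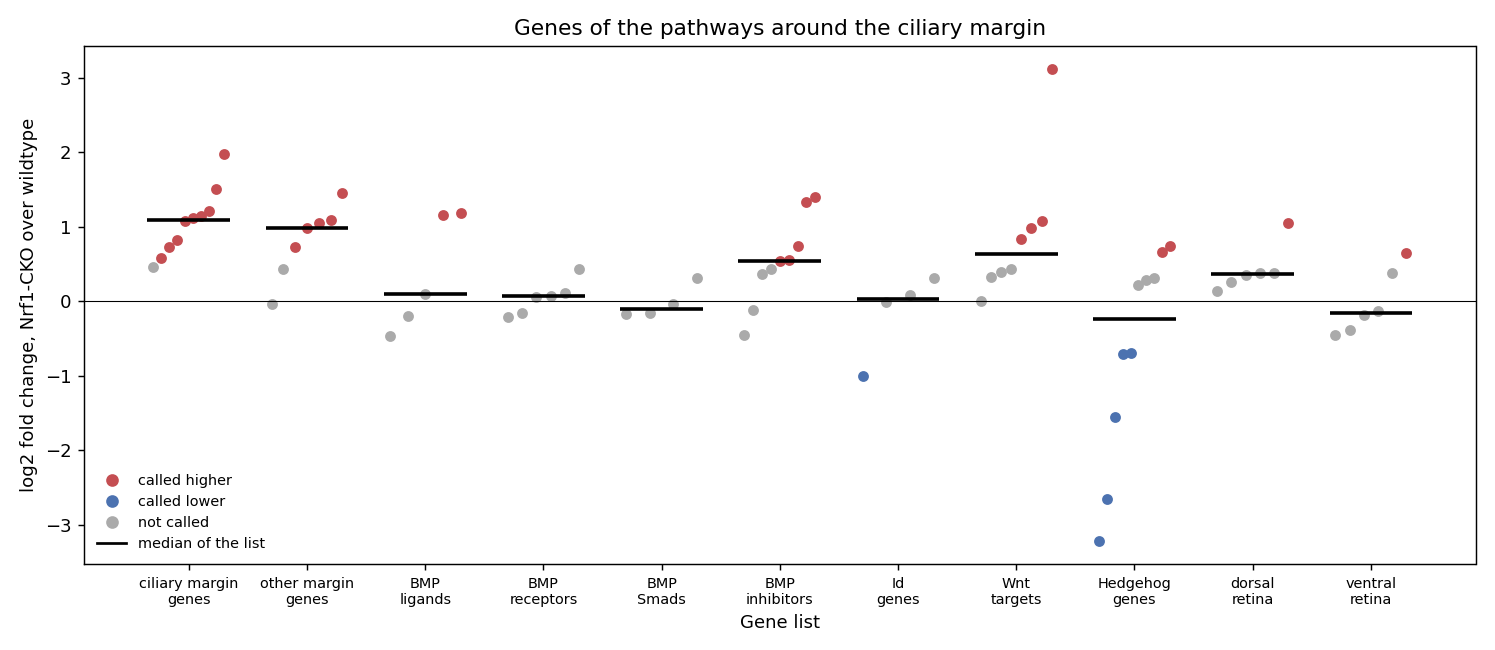
Log2 fold change (mutant over wildtype) of each tested gene in 11 gene lists, coloured by whether edgeR called it higher, lower or neither, with the median of each list as a black line. The ciliary margin genes and the other margin genes have medians of 1.09 and 0.98, BMP receptors and Smads lie near 0, and the Hedgehog list holds genes called in either direction.

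Several of the 10 genes are also known from tissues that touch the retina, such as the pigment epithelium, lens epithelium, surface ectoderm and periocular mesenchyme, and markers of these moved with the genotype. Pigment epithelium markers summed to 331 and 243 CPM in wildtype and 611 and 640 CPM in mutant libraries, and 7 of 9 tested genes rose (median log2 fold change 0.99). *Pmel*, *Trpm1* and *Dct* were the most abundant. *Rpe65* had 4 reads in wildtype replicate 2 and 0 elsewhere. Periocular mesenchyme markers summed to 303 and 211 CPM in wildtype and 440 and 384 CPM in mutant libraries, led by *Col3a1*, *Col1a2* and *Col1a1*, and 8 of 12 rose (5 without wildtype replicate 2). Surface ectoderm markers, led by *Cdh1*, *Krt18* and *Epcam*, summed to 34.5 and 26.8 CPM and to 77.6 and 66.1 CPM, and 7 of 8 rose (3 without wildtype replicate 2 and 3 without mutant replicate 1). The ciliary margin genes summed to 585 and 589 CPM in wildtype and 987 and 1107 CPM in mutant libraries. The part of these tissues in the rise of the margin genes was not tested.

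Lens markers, led by *Cryaa*, *Crybb3* and *Cryba1*, rose far more, from 171 and 483 CPM in wildtype to 10017 and 4105 CPM in mutant libraries, and 11 of 12 were called. The part of lens tissue in the rise of the margin genes was not tested.

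Retinal ganglion cell markers, led by *Nefl*, *Stmn2* and *Gap43*, fell, from 1400 and 1604 CPM in wildtype to 547 and 429 CPM in mutant libraries, with 7 of 8 called lower. Progenitor markers, led by *Sfrp2*, *Fgf15* and *Pax6*, summed to 5543 and 5877 CPM in wildtype and 4914 and 5391 CPM in mutant libraries, and only *Fgf15* of 10 was called (lower, log2 fold change -0.70). When the libraries were scaled to the summed counts of these progenitor markers, a choice made after seeing the data, the median of all tested genes moved to 0.15 and the share of higher among all called genes from 61.5% to 74.5%. All 10 margin genes were then called higher, with a median of 1.24, and *Zic2* passed the limit with 0.61 as genes in general shifted up. At least 2-fold increases were called for 6 of the 10, against 9.15% of all tested genes.

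**Figure D5:**
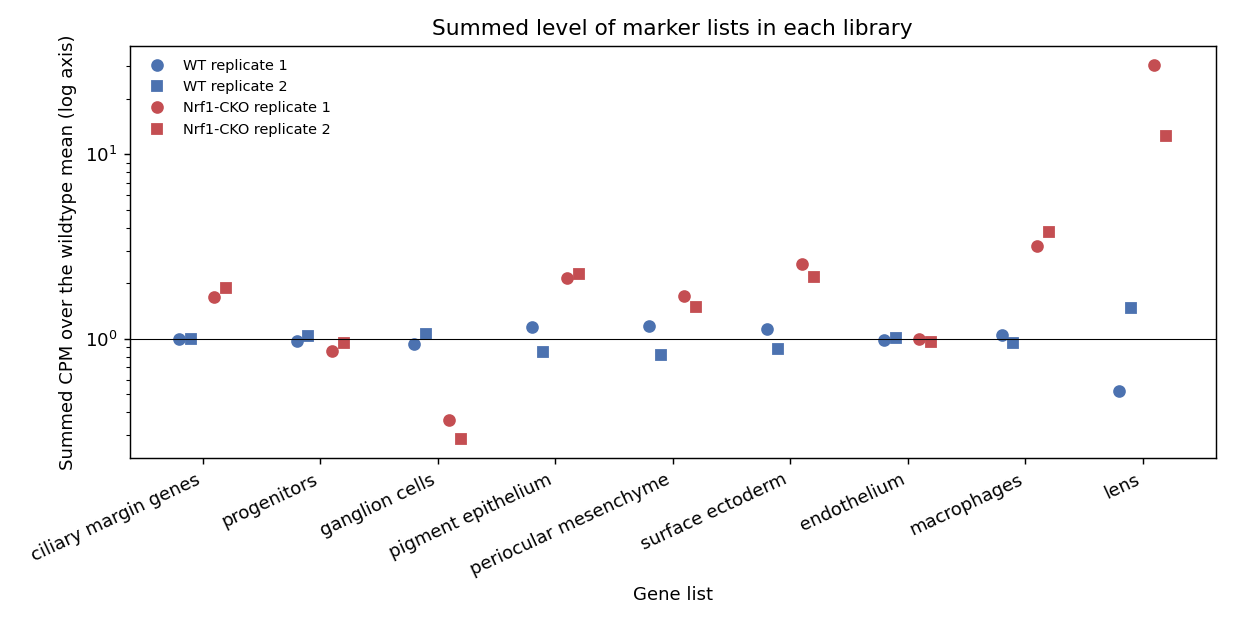
Summed CPM of each gene list in each library, divided by the mean of the 2 wildtype libraries, on a log axis. The ciliary margin genes lie at a similar height in both mutant libraries, pigment epithelium and ectoderm markers lie higher in both as well, lens markers rise most and are highest in mutant replicate 1, and ganglion cell markers fall.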

How the data were processed

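RNA was measured in 4 libraries of pooled E13.5 retinas, 2 wildtype and 2 Nrf1-CKO. Alignment to mm10 was done by the authors with TopHat (2.7.2 in the submitters' processing notes), HTSeq gave reads per gene, and the authors deposited these raw counts. The annotation release and strand setting are not given in the sources used here. The deposited log2 normalized values have the same lowest value in every library, and how they were made is not given in the sources used here. The submitters' processing notes also name DESeq and limma, without their role. The header lines hold extra empty cells, so their 4 names were taken in order over the 4 value columns.

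The counts of 24062 genes were used. The 5 HTSeq summary rows, 74.0% to 75.0% of all entries and mostly alignments that were not unique, stayed out of library sizes and tests. With edgeR 4.0.16 in R 4.3.3, genes were filtered with filterByExpr (minimum count 10), scaled with TMM factors and compared with the quasi-likelihood test and Benjamini-Hochberg adjustment over 15762 genes. The study's own test, Cuffdiff, needs alignments and was not run. Standard errors are the log2 fold change divided by the root of F. With 2 pools per genotype the spread is known only roughly, and intervals rest on these pools and on counting error. PCR copies are not independent molecules.

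Coordinates and exon lengths are from GENCODE for GRCm38. The members and all gene lists were chosen with earlier results of these data known, so no list was tested as a set. Named were the 10 genes, their relatives, called genes of the pathway lists (in a list with no call, the gene with the largest value) and the 3 most abundant genes of each marker list, and other genes were named after their values were seen. Some genes that this rule covers are not reported here. Alternatives were DESeq2 1.42.0, limma 3.58.1 on the deposited values, other scalings and filters, a replicate block, stricter thresholds and each library left out.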

Additional observations from a re-analysis of the deposited data

How the results depend on the processing

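Over 15 alternatives, no member of the set of 10 changed direction, and of 150 values 144 kept their side of the thresholds. *Zic1* was not called by edgeR's glmTreat, which tests the fold against 1.4, and without mutant replicate 2, and *Zic2* became called in 4 alternatives. Members called higher numbered 8 to 10 and members called lower 0 in all alternatives. The median of the 10 genes was 0.70 by limma on the deposited values, 1.24 with libraries scaled to progenitor markers, and 0.95 to 1.13 with each library left out. On the deposited values *Msx2*, *Bmp4* and *Msx1* had 0.75, 0.71 and 0.65. Over all genes, glmTreat called 1188 higher and 743 lower and limma on the deposited values 945 and 723, against 2024 and 1268. Scaling to progenitor markers gave 74.5% higher among called genes in place of 61.5%. The replicate block gave 1970 higher and 1256 lower and changed no call of the 10 genes. The labels do not say whether a number marks a shared litter or day. Deviations of same-numbered libraries had a correlation of -0.0042 across tested genes. With 2 libraries per genotype this cannot decide whether the numbers pair the libraries.

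Values near 0 changed sign. *Otx2* was 0.0062 with upper quartiles, 0.11 with progenitor scaling and -0.088 to 0.019 with 1 library left out. *Sfrp2* was 0.0080 and 0.11 with the same scalings and -0.14 to 0.069 with 1 library left out. With 1 library left out, *Gjc1* ranged from -0.30 to 0.011 and *Pax6* from -0.0073 to 0.057. The median of the BMP receptors ranged from -0.078 to 0.13 with 1 library left out, that of the Smad genes was 0.054 with progenitor scaling, that of the Hedgehog list was 0.23 with at least 10 counts in every library, and that of the progenitor markers was 0.069 with progenitor scaling and -0.13 to 0.0016 with 1 library left out. The cause was not tested. Of 958 values for 64 other named genes, 878 kept direction and side of the thresholds. Low counts, as in *Sp5*, *Nog* and *Gjb6*, limit precision.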

Other observations

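The relatives of *Gja1* moved in different ways. *Gja3*, a connexin gene of lens fibres, had 75, 266, 5660 and 2280 reads in wildtype replicates 1 and 2 and mutant replicates 1 and 2, a change of 4.46 ± 0.59 (log2 ± standard error, edgeR, adjusted p = 0.000924). *Gjb2* had 1.10 at 54 to 163 reads and was not called without mutant replicate 1 (0.97). *Gjb6* and *Gjc1* had 0.82 and -0.16 and were not called, and *Gjb6* was 0.38 without mutant replicate 2.

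Marker lists of other cells gave these values. All 7 macrophage and microglia genes, led by *Csf1r*, *Cx3cr1* and *C1qb*, rose, from 67.6 and 61.5 CPM in wildtype to 205 and 245 CPM in mutant libraries. Of 6 endothelial genes, 4 rose and *Kdr* fell (log2 fold change -0.55, not called with progenitor scaling), and with *Kdr*, *Cdh5* and *Pecam1* as the most abundant their sum was 251 and 258 CPM in wildtype and 255 and 244 CPM in mutant libraries. *Kdr* is also expressed in retinal progenitors. Among 4 tested erythroid genes 2 rose, *Alas2* (0.60) among them, which was not called without wildtype replicate 1 (0.39), none of the 4 was called with every library left out in turn, and *Hbb-y*, the most abundant, had 0.25 and was not called.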
